A study of Mus musculus with 8 samples.

Results

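The genes described are 10 that build, supply or switch on major histocompatibility complex (MHC) class I presentation: H2-K1, H2-D1, B2m, Tap1, Tap2, Tapbp, Psmb8, Psmb9, Psmb10 and Nlrc5. They were chosen by symbol, for their known roles, among the 32285 features of the matrices, and all 10 were measured. Their unique molecular identifiers (UMIs, tags that mark each captured transcript) were counted in T cells, defined by at least 2 UMIs over Cd3d, Cd3e, Cd3g, Trac, Trbc1 and Trbc2. The T cells were split into CD4-gated cells, with at least 1 UMI of Cd4 and none of Cd8a or Cd8b1, and CD8-gated cells, with the reverse. By this rule the 8 libraries held 79528 T cells, of which 29785 were CD4-gated and 25232 CD8-gated. After filters on quality and doublets 27482 CD4-gated and 22246 CD8-gated cells were analysed. Filtered T cells with no gate transcript found (17680) or with both kinds (3139) are in neither gate. They were 21.4% of the filtered T cells in active and up to 35.1% in PPCA day 4, so the gates do not hold all CD4 and CD8 T cells.

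The libraries were single-cell RNA-seq, by droplet capture and counting of transcript 3′ ends, of CD45+ CD3+ TCRβ+ cells that were sorted out of NOD mouse pancreas. NOD mice develop autoimmune diabetes spontaneously. All mice were labelled female, aged 3 to 4 months in the sample labels and 3 to 5 months in the protocol. The active library came from untreated mice with blood glucose above 600 mg/dl and the onset library from untreated mice at 250 mg/dl, each 1 library with no replicate, harvested on day 1. Mice at 200 to 300 mg/dl were given PPCA, a daily pair of nutlin-3 (50 mg/kg), an inhibitor of MDM2, and MK-1775 (25 mg/kg), an inhibitor of the kinase WEE1, or the vehicle of ethanol, Tween 20 and PEG300. Each of the 2 treatments had 1 library on each of days 2, 3 and 4, so 3 libraries per arm. How many mice went into a library is not stated, and cells were frozen before they were processed together. The p-values below therefore compare libraries and not mice. For PPCA against vehicle they weigh the difference within days against its spread between libraries. For comparisons within a library they weigh the ratio against its spread over the libraries, and not the spread in level between libraries. The spread is estimated with information shared across genes, so a small p-value does not measure 1 gene's own consistency.

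MHC class I molecules display peptides from inside a cell to CD8 T cells. Peptides are cut by the proteasome, whose catalytic subunits can be replaced by the immunoproteasome subunits encoded by Psmb8, Psmb9 and Psmb10. The transporter made of TAP1 and TAP2 pumps them into the endoplasmic reticulum, where tapasin (Tapbp) loads them on a heavy chain (H2-K1, H2-D1) paired with beta-2 microglobulin (B2m). NLRC5 is the transactivator of class I genes, and both interferon-gamma and type I interferon are known inducers of the set. T cells are themselves nucleated cells that carry class I molecules.

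Summed UMIs per library ran from 12396361 to 24686164 in CD4-gated cells and from 10251055 to 22592242 in CD8-gated cells, and the median cell had 3851 to 6153.5 and 4277 to 7259 UMIs. Any library pair shared 14 to 41 cell barcodes, at most 0.431% of the smaller library. Markers of other cells were low, which for B cell and myeloid genes the filter of at most 1 UMI over 6 such genes per cell largely fixes: 3 B cell genes summed to at most 1.28 counts per 1000000 UMIs (CPM), 4 class II genes to at most 7.80 CPM and 3 natural killer genes to at most 3.07 CPM. Of 5 myeloid genes Cst3 carried 109 to 156 CPM and each of the others at most 5.62 CPM, and of 2 endothelial genes Pecam1 carried 41.7 to 114 CPM and Cdh5 at most 0.367 CPM. The 12 pancreas genes summed to 8.92 to 287 CPM, with Gcg at 0 in all sums. Y-linked transcripts (4 genes) stood at 176 to 288 CPM in vehicle day 2, vehicle day 3, PPCA day 3 and PPCA day 4, which goes against the female label. They were at most 0.286 CPM in the other 4. The day 3 pair is therefore the only treatment pair alike in this respect.

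Sequences upstream of the transcription start are shown for members that the results below set side by side, as 250 bases each from RefSeq on GRCm38.p6, read 5′ to 3′ on the strand of the gene. RefSeq promoters matched 8 of the 10 genes, in 9 entries, and Tap2 and Nlrc5 are named only. Capitals mark matches to 3 motifs searched on both strands: the interferon-stimulated response element ISRE (GAAANNGAAA), the interferon-gamma activated site GAS (TTCNNNGAA) and the NF-kB consensus. Matches on opposite strands or shifted by 1 base can overlap.
H2-K1, chr17:34000334-34000583, minus strand: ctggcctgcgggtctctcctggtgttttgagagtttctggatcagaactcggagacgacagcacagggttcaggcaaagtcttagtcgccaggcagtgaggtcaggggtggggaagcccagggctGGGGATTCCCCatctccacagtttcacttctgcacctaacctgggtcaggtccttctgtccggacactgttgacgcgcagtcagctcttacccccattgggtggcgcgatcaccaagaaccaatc
H2-D1, chr17:35262844-35263093, plus strand: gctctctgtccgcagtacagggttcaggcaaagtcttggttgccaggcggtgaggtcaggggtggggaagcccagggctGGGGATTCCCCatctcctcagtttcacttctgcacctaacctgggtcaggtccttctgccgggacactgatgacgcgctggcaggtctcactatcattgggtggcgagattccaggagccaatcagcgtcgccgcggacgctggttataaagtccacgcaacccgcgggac
B2m, chr2:122147437-122147686, plus strand: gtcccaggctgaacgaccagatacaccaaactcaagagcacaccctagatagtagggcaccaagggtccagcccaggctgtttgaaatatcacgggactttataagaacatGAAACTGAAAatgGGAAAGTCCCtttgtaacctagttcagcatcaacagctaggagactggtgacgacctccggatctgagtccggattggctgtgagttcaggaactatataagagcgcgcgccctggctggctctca
Tap1, chr17:34187306-34187555, plus strand: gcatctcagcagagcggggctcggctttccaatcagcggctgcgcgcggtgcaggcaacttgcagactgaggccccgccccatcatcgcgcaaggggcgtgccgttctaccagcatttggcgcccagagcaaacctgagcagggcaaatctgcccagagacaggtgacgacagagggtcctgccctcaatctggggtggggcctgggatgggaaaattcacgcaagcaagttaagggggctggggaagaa
Psmb8, chr17:34197945-34198194, plus strand: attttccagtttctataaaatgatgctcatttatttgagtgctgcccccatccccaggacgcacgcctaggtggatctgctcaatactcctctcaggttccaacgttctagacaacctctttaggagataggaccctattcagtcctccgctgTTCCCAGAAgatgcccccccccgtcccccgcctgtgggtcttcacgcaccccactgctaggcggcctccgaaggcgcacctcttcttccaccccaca
The heavy chain genes H2-K1 and H2-D1 carry the same NF-kB run, which starts 125 and 171 bases before their starts. B2m carries both an ISRE and an NF-kB match, and it is the only entry of the 9 with an ISRE, which 2.98% of 32851 RefSeq promoters hold in a window of this length. Psmb8 is the only entry with a GAS match (7.02% of promoters), and the NF-kB consensus lies in the entries of H2-K1, H2-D1 and B2m (3.90% of promoters). The CCAAT box, the letters CCAAT on either strand and not capitalised, lies in 7 of the 9 entries, from 6 genes, against 33.8% of promoters. These entries are not independent, since the H2-K1 pair overlaps and the boxes of Tap1 and Psmb9 are the same bases. Tap1 and Psmb9 start 225 bases apart on opposite strands, so the Tap1 window also covers the start of Psmb9. In the RefSeq gene order on chromosome 17, Psmb9, Tap1, Psmb8 and Tap2 follow each other with no other protein-coding gene between them. These matches describe letters of the reference build only. The sequence in NOD mice was not examined, and no binding was measured.

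Levels are given in CPM of the summed cells of a gate, scaled by the trimmed mean of M-values (TMM) over all 16 sums. The heavy chain gene H2-K1 (ENSMUSG00000061232) stood at 1237 to 1497 CPM in CD4-gated cells (median 1375) and 1411 to 1634 CPM in CD8-gated cells (median 1563). H2-D1 (ENSMUSG00000073411), the other classical heavy chain, stood at 1813 to 2148 CPM (median 1910.15) and 1916 to 2327 CPM (median 2091). B2m (ENSMUSG00000060802), the light chain shared by all class I molecules, stood at 1587 to 2541 CPM (median 1992) and 1890.3 to 2945 CPM (median 2363). Of these 3 genes B2m varied most across libraries, with an SD of 332 CPM around a mean of 2033 CPM in CD4-gated cells (n = 8), against 87.9 around 1379 CPM for H2-K1. Its order from low to high was the same in both gates: PPCA day 4, PPCA day 2, vehicle day 4, vehicle day 2, PPCA day 3, onset, vehicle day 3 and active. NOD mice carry the Kd and Db alleles, heavy chain genes are alike in sequence, and how reads shared between copies were counted is not stated, so levels of H2-K1, H2-D1 and the H2-Q genes are uncertain to that extent.

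The immunoproteasome genes were measured at lower counts. Psmb8 (ENSMUSG00000024338) had medians of 525 CPM in CD4-gated and 684 CPM in CD8-gated cells, over ranges of 394 to 622 and 560.1 to 776 CPM. Psmb9 (ENSMUSG00000096727) ranged over 162 to 242 CPM (median 213) and 209 to 281 CPM (median 259), and Psmb10 (ENSMUSG00000031897) over 84.7 to 175 CPM (median 147) and 116 to 220.03 CPM (median 172). Each of the 3 was lowest in the PPCA library of day 4 in both gates. The transporter genes Tap1 (ENSMUSG00000037321) and Tap2 (ENSMUSG00000024339) had CD4-gated ranges of 61.6 to 101 and 94.9 to 116 CPM, and CD8-gated ranges of 64.4 to 108 and 104 to 125 CPM. The loading gene Tapbp (ENSMUSG00000024308) ranged over 92.8 to 201 CPM (median 141) and 112 to 216 CPM (median 159), highest in the active library in both gates. The transactivator Nlrc5 (ENSMUSG00000074151) ranged over 27.2 to 44.3 CPM (median 34.5) and 48.3 to 72.6 CPM (median 57.5), highest under PPCA on day 2 in both gates.

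**Figure D1:**
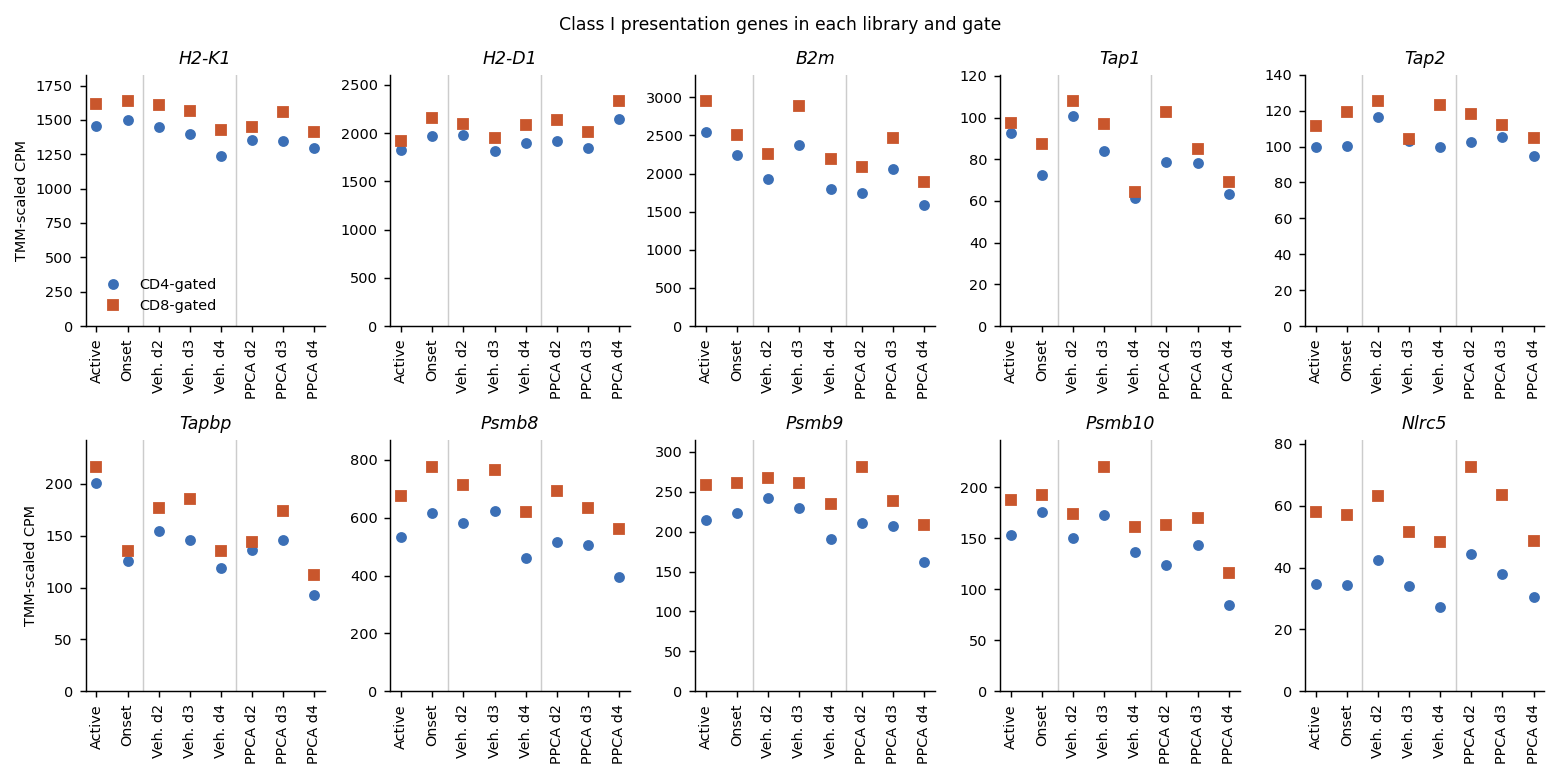
TMM-scaled CPM (vertical axes, from 0) of each of the 10 genes in each of the 8 libraries (horizontal axes), as circles for CD4-gated and squares for CD8-gated cells; 1 point is 1 sum, with no error bar. The square lies above the circle in every library for every gene, and Nlrc5 is the gene whose gates do not overlap across libraries (27.2 to 44.3 against 48.3 to 72.6 CPM).

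Seen per cell, after each cell was thinned to 2000 UMIs, the presenting chains were found in nearly every cell, Psmb8 in most cells and the other 6 genes in a minority at that depth. H2-K1 had at least 1 UMI in 87.4% to 94.5% of CD4-gated and 90.05% to 95.02% of CD8-gated cells of a library. H2-D1 had at least 1 UMI in 94.9% to 98.0% of CD4-gated and 95.7% to 98.7% of CD8-gated cells of a library, and B2m in 94.2% to 99.1% and 96.0% to 99.5%. Psmb8 was found in 52.8% to 71.1% of CD4-gated and 63.5% to 78.3% of CD8-gated cells. Nlrc5 was found in 5.38% to 9.66% of CD4-gated and 8.22% to 15.0% of CD8-gated cells, and its share was higher in CD8-gated cells in 8 of 8 libraries. The share for Tap2 was higher in CD8-gated cells in 4 of 8 libraries, against 7 or 8 of 8 for the other 9 genes. Without thinning the Nlrc5 shares were 11.1% to 20.4% and 17.2% to 32.7%, while Psmb9 was found in 44.9% to 70.8% and 55.5% to 81.0%, and Tapbp and Psmb10 reached 73.3% and 70.9%, so which genes lie in a minority of cells depends on depth. The exact 95% Clopper-Pearson intervals of the thinned shares were at most 4.89 percentage points wide, and they cover counting error only. A share from free RNA could not be measured, because no cell type of the sort lacks class I genes. Thinning left out 321 CD4-gated and 310 CD8-gated cells.

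The first comparison asks whether CD8-gated and CD4-gated T cells of the same library differ in these genes. All 10 genes were higher in CD8-gated cells, each in 8 of 8 libraries, and all 10 passed edgeR's quasi-likelihood test with library as a block (Benjamini-Hochberg adjusted p under 0.05). In this comparison 45.4% of 12649 genes were called, and 23% were called as higher in CD8-gated cells. The median log2 fold change was 0.22 over the 10 genes and -0.00022 over all genes tested.

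Nlrc5 differed most. In CD4-gated cells it stood at 34.6 CPM in active, 34.4 in onset, 42.3, 34.2 and 27.2 in vehicle and 44.3, 38.0 and 30.6 in PPCA, the last 2 groups in the order of days 2, 3 and 4. The CD8-gated cells of the same libraries had 57.9, 57.1, 63.0, 51.4 and 48.3, then 72.6, 63.4 and 48.7 CPM. The lowest CD8-gated value was above the highest CD4-gated one, so the gates did not overlap, as for 3.34% of 7269 genes averaging at least 10 CPM in this direction and 5.90% in either. The fitted difference was 0.70 on the log2 scale (SE 0.033, edgeR adjusted p = 6.77e-11), or 1.63-fold.

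The immunoproteasome genes followed. Psmb8, which encodes a chymotrypsin-like subunit, was higher by 0.37 on the log2 scale (SE 0.024, edgeR adjusted p = 4.60e-09), with 0.29 to 0.51 in single libraries. Psmb10 and Psmb9, which encode the other immunoproteasome subunits, were higher by 0.29 (SE 0.029) and 0.27 (SE 0.028). Of the constitutive subunits that these replace, Psmb5, Psmb6 and Psmb7, 0 were called higher, 2 were not called and Psmb7 was called lower, by -0.078 (SE 0.025, edgeR adjusted p = 0.0171). B2m was higher by 0.25 (SE 0.020), at 0.16 to 0.29 in single libraries. Tapbp was higher by 0.20 (SE 0.028), Tap1 by 0.17 (SE 0.036) and Tap2 by 0.17 (SE 0.032). The heavy chains differed least, H2-K1 by 0.16 (SE 0.021) and H2-D1 by 0.12 (SE 0.021, edgeR adjusted p = 0.000187), an 8.65% higher level.

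**Figure D2:**
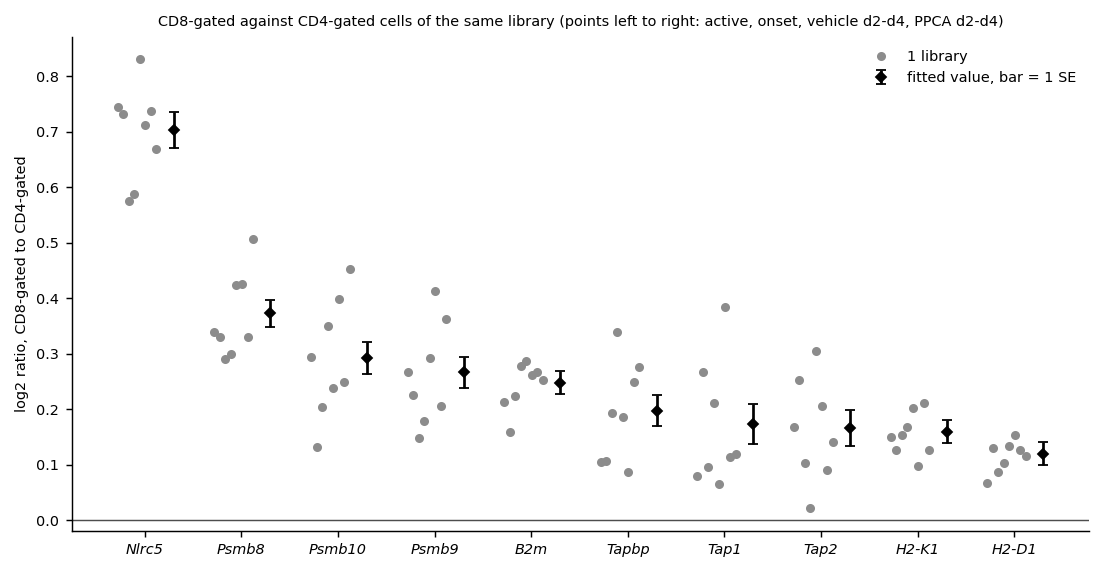
The log2 ratio of CD8-gated to CD4-gated TMM-scaled levels (vertical axis) for the 10 genes, ordered by size; grey points are the 8 libraries and black diamonds the fitted log2 fold change with a bar of 1 SE. Every point lies above 0, from 0.021 for Tap2 under vehicle on day 3 to 0.83 for Nlrc5 under vehicle on day 4.

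Genes that work beside the 10 were counted from lists, to be read against the 23% of all genes called higher and 22.3% called lower in this comparison. Of 11 genes of peptide trimming, loading and proteasome activation, 7 were higher and 1 lower in CD8-gated cells. Tapbpl, which encodes the tapasin-related editor TAPBPR, was higher by 0.97 (SE 0.035, edgeR adjusted p = 4.12e-12), from 31.9 to 53.6 CPM in CD4-gated to 60.2 to 99.4 CPM in CD8-gated cells, again with no overlap between gates. Psme1, a subunit of the proteasome activator PA28, was higher by 0.35 and Sec61b, a translocon subunit, by 0.30. Of 9 further class I genes 6 were higher and 2 lower, led by the nonclassical H2-Q6 (0.78), H2-Q7 (0.60) and H2-M3 (0.44). Of 19 tested regulators 5 were higher and 5 lower, shares near those of all genes: the receptor chain Ifngr2 was lower by -0.79, while Ifnar2 and Ifngr1 were higher by 0.66 and 0.51. Interferon-gamma GTPases and related genes were higher for 7 and lower for 1 of 9, and type I interferon genes higher for 4 and lower for 2 of 10.

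Within CD8-gated cells with 0 Ccl5 UMIs, set against CD4-gated cells chosen the same way, 8 of the 10 genes were called higher, where 17.3% of 10958 genes were. H2-D1 (log2 fold change 0.038, edgeR adjusted p = 0.186) and Tap2 (0.088, adjusted p = 0.0603) were not. Ccl5 marks cytotoxic memory cells and was detected in 13.0% to 39.5% of thinned CD8-gated and 2.63% to 9.79% of CD4-gated cells. Of the cells with Ccl5, 1191 of 1567 in the CD4 gate and 819 of 5138 in the CD8 gate held a single UMI, and 289 and 4110 held at least 3. The share that free RNA gives was not measured, so the CD4-gated share is not read as expression. In the 4 libraries with Y-linked transcripts 9 genes were called higher, where 16.1% of 12241 genes were, and Tap2 was not (0.070, adjusted p = 0.151). The 10 dissociation and early response genes, known to rise during tissue handling, were lower in CD8-gated cells for 8 of 10, with a median log2 fold change of -0.45. Their part in these differences was not tested.

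The next comparison asks how the 10 genes stand in cells that carry transcripts of the type I interferon response. Cells were called interferon-list-positive when they held at least 2 of 2000 thinned UMIs over Isg15, Ifit1, Ifit2, Ifit3, Rsad2, Irf7, Oasl2, Rtp4, Usp18 and Zbp1. This gave 2653 of 27161 CD4-gated and 2289 of 21936 CD8-gated cells. None of the 10 presentation genes is on that list. In CD4-gated cells 8 of the 10 were higher in the positive cells by edgeR with library as a block, where 1.66% of 10316 genes were called higher and 1.95% in either direction. In CD8-gated cells 9 were higher, where 1.95% of 9896 genes were called higher, 0.0707% lower and 2.02% in either direction.

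Tapbp had the highest fitted value of the 10 in CD4-gated and Nlrc5 in CD8-gated cells. Nlrc5 in CD8-gated cells had a median of 99.6 TMM-scaled CPM (52.6 to 110.1) in positive and 59.7 CPM (45.8 to 66.9) in other cells, higher in 8 of 8 libraries. The fitted difference was 0.62 (SE 0.094, edgeR adjusted p = 4.38e-07), and 0.46 (SE 0.10, adjusted p = 0.00151) in CD4-gated cells. Library ratios of Nlrc5 were uneven in CD8-gated cells, from 0.066 under vehicle on day 3 to 1.20 under PPCA on day 4. Tapbp in CD4-gated cells had a median of 181 CPM (149.5 to 291) against 138 CPM (99.3 to 194), also in 8 of 8 libraries, with a fitted 0.47 (SE 0.059, edgeR adjusted p = 4.83e-11). It was higher by 0.42 (SE 0.063) in CD8-gated cells. Tap1 was higher by 0.43 (SE 0.074) and 0.42 (SE 0.075) in the CD4 and CD8 gates, each in 8 of 8 libraries.

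The 3 immunoproteasome genes were higher in both gates. Psmb10 was higher by 0.36 (SE 0.059) in CD4-gated and 0.46 (SE 0.062) in CD8-gated cells, and Psmb9 by 0.33 in both (SE 0.052 and 0.057). For Psmb8 the values were 0.29 (SE 0.040) and 0.28 (SE 0.047). The constitutive Psmb5, Psmb6 and Psmb7 were called in neither gate, with medians of 0.027 and -0.064. The chains of the presenting molecule stood closest to no difference. B2m was higher by 0.16 (SE 0.033, edgeR adjusted p = 0.000170) and 0.14 (SE 0.039, adjusted p = 0.0311). For H2-K1 the call was made in CD8-gated cells only (0.18, SE 0.041, adjusted p = 0.00132), with 0.092 (SE 0.035, adjusted p = 0.267) in CD4-gated cells, and the difference between the gates was not tested. H2-D1 passed in neither gate (0.062, SE 0.033, adjusted p = 0.677, and 0.11, SE 0.039, adjusted p = 0.2095), although it was higher in 6 and 8 of 8 libraries. Tap2 passed narrowly, by 0.24 (SE 0.069, adjusted p = 0.0376) and 0.25 (SE 0.072, adjusted p = 0.0490).

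Partner genes were counted in the same cells. Of 11 genes of trimming, loading and proteasome activation 2 and 3 were called, all higher, with medians of 0.016 and 0.022 over the list. All 9 interferon-gamma-inducible genes listed were higher in both gates, led by Igtp (1.16) in CD4-gated and Iigp1 (1.26) in CD8-gated cells. Of 19 regulators 5 and 6 were higher and 0 lower: Stat2 and Irf9, which carry the type I interferon signal, were higher by 1.01 and 0.84 in CD4-gated and 1.09 and 0.85 in CD8-gated cells. The PA28 subunits Psme1 and Psme2 were higher by 0.31 and 0.34 in CD4-gated and 0.29 and 0.25 in CD8-gated cells. Among 9 further class I genes 3 and 4 were higher, with H2-T24 at 1.68 and 1.73, H2-T23 at 0.53 and 0.54 and H2-T22 at 0.58 and 0.52. The dissociation list had 0 of 10 called in either gate. Pancreas genes stood at a median of 24.9 plain CPM in positive and 81.5 CPM in other CD4-gated cells, and 47.7 and 67.0 CPM in CD8-gated cells, and their part was not tested.

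Several of these calls lie near the threshold or change with the setting. With the scaling factors of DESeq2 in edgeR all 10 genes were called in CD4-gated cells, and without the PPCA library of day 4 H2-K1 was called there too (0.11, adjusted p = 0.00877). A cut of at least 1 list UMI lowered the median log2 fold change of the 10 from 0.31 to 0.17 in CD4-gated and from 0.30 to 0.18 in CD8-gated cells, with 10 and 8 genes called, and a cut of at least 3 gave 0.38 and 0.32 with 6 called in each gate. On counts that were not thinned the medians were 0.24 and 0.19, with 8 called in each gate. The CD8-gated call of H2-K1 was lost with no low-count filter (0.13, adjusted p = 0.275) and with the cut of 3 (0.16, adjusted p = 0.514). H2-K1 was called in CD4-gated cells with the cut of 1 (0.070, adjusted p = 0.00317). Tap2 was not called by DESeq2 or without the low-count filter in either gate (adjusted p of 0.0930 to 0.3045). DESeq2 itself called H2-D1 in CD8-gated cells (0.12, adjusted p = 0.00474). In the 4 libraries with Y-linked transcripts alone 2 genes were called in CD4-gated and 5 in CD8-gated cells, and in the 4 without them 10 and 6. Those fits called 0.993% and 1.35% of all genes higher with the Y-linked transcripts and 1.52% and 1.38% without, and the fits with other cuts, scaling or no thinning 1.43% to 2.10%. Tap2 in CD4-gated cells was not called without the active library (0.18, adjusted p = 0.426), nor without any 1 of vehicle day 4, PPCA day 2 and PPCA day 4 (adjusted p of 0.0666, 0.166 and 0.0939). Without the PPCA library of day 2 Nlrc5 there was 0.39 (adjusted p = 0.123). In CD8-gated cells B2m lost its call without any of 7 single libraries, all but the active one, at log2 fold changes of 0.13 to 0.14. Tap2 there lost its call without any of 7, all but the PPCA library of day 2, at 0.22 to 0.25. Adjusted p-values over all alternatives ran up to 1.00 for B2m and 0.829 for Tap2 in CD8-gated cells. With no replicate block 0 and 1 of the 10 genes were called, the latter being Nlrc5, where 0.910% and 0.944% of all genes were called higher. The median log2 fold changes of the 10 in those fits were 0.32 and 0.31.

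A further split set CD8-gated cells with at least 1 thinned UMI of Ccl5 (5138 of 21936 cells), a chemokine of memory and effector cells, against those with none. Here 7 genes were higher, 1 was lower and 2 were not called by edgeR, where 40.6% of 10211 genes were called, 19.8% higher and 20.8% lower. TMM scaling lowered every log2 ratio of this split by 0.19 at the median library (0.14 to 0.24) relative to plain CPM, so directions near 0 depend on it.

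H2-D1 differed most here. Its levels in Ccl5-positive cells were 2416 TMM-scaled CPM in active, 2905 in onset, 2696, 2283 and 2786 in the vehicle and 2757, 2568 and 2845 in the PPCA libraries, by day. In Ccl5-negative cells they were 1986, 2059.7, then 2088, 1999.9 and 2135, then 1965, 2057 and 2289 CPM. The positive cells were higher in 8 of 8 libraries, with a fitted 0.36 (SE 0.041, edgeR adjusted p = 8.44e-09). Nlrc5 was higher by 0.35 (SE 0.073), Psmb9 by 0.25 (SE 0.055), Psmb8 by 0.23 (SE 0.046) and H2-K1 by 0.22 (SE 0.041), each in 8 of 8 libraries. In the 4 libraries without Y-linked transcripts Nlrc5 was not called (0.25, adjusted p = 0.0584). Tap1, higher by 0.22 (SE 0.078, edgeR adjusted p = 0.0234), was higher in 4 of 8 libraries on the TMM scale, the active, onset and PPCA libraries of days 2 and 4, and in 7 of 8 on plain CPM. It was not called without any 1 of those 4. Tap2 was higher by 0.15 (SE 0.057, adjusted p = 0.0315), in 6 of 8 libraries on the TMM scale and 8 of 8 on plain CPM, and its call was lost without the onset library or without any 1 of the vehicle day 2, PPCA day 2 and PPCA day 3 libraries. On counts that were not thinned the median log2 fold change of the 10 was 0.12, against 0.22. In that fit 5 of the 10 were called higher and 1 lower, where 4680 of 11413 genes were called, 2331 higher and 2349 lower. There Tap1 was at 0.12 (adjusted p = 0.0763) and Tap2 at 0.022 (adjusted p = 0.7099), and DESeq2 called neither (adjusted p of 0.132 and 0.0982).

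Tapbp went the other way. It stood at 113 to 211 CPM (median 132) in Ccl5-positive and 122 to 239 CPM (median 180.2) in Ccl5-negative cells, lower in 8 of 8 libraries, with a fitted -0.30 (SE 0.055, edgeR adjusted p = 3.15e-05). On plain CPM it was lower in 5 of 8 libraries, with a median log2 ratio of -0.16. B2m (0.051, SE 0.039, adjusted p = 0.323) and Psmb10 (-0.12, SE 0.054, adjusted p = 0.0778) were not called. On plain CPM their median log2 ratios were 0.24 and 0.083, so the sign for Psmb10 turns with the scaling. When positive cells needed at least 3 UMIs of Ccl5, Psmb10 was called lower (-0.17, adjusted p = 0.0191), as it was without the PPCA library of day 2 (-0.15, adjusted p = 0.0347).

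The partner genes were counted against the 19.8% of all genes called higher and 20.8% called lower in this split. Psme2, Psme1 and the trimming peptidase Erap1 were lower by -0.40, -0.35 and -0.27 in Ccl5-positive cells, with 1 higher and 4 lower of 11 in that list. The nonclassical H2-Q7, H2-Q6 and H2-M3 were higher by 0.54, 0.53 and 0.37, with 4 of 9 higher and 0 lower. Of 19 regulators 3 were higher and 4 lower, shares near those of all genes: Ifngr2 was lower by -2.70 (SE 0.14, edgeR adjusted p = 7.26e-17) and Ifnar2 was higher by 0.95. Interferon-gamma-inducible genes were lower for 5 and higher for 1 of 9, led by Iigp1 (-2.28) and Tgtp1 (-1.84). The type I list had 3 higher and 2 lower of 10, also near those shares. On plain CPM Cd8a and Cd8b1 together stood at a median of 1612 CPM in positive and 1208 CPM in negative cells, Pecam1 with Cdh5 at 22.3 and 65.5 CPM, and the 12 pancreas genes at 93.5 and 48.9 CPM. The 5 myeloid genes stood at 161 and 114 CPM, the 4 class II genes at 8.82 and 2.73 CPM and the 3 natural killer genes at 2.19 and 0.27 CPM. The part of these in the result was not tested.

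**Figure D3:**
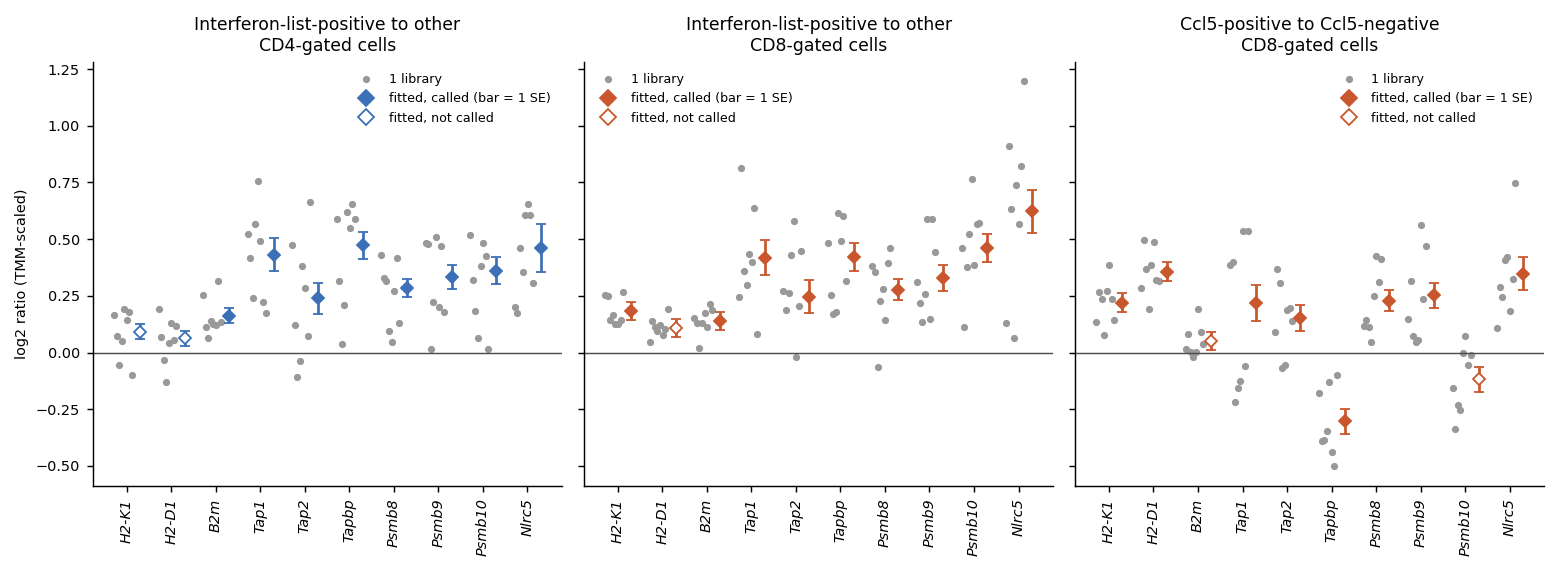
Log2 ratios (vertical axis, TMM-scaled) of positive to other cells for the 10 genes in the interferon-list split of CD4-gated cells (left) and CD8-gated cells (middle) and in the Ccl5 split of CD8-gated cells (right); grey points are the 8 libraries, diamonds the fitted values with a bar of 1 SE, filled where the edgeR adjusted p was under 0.05. H2-D1 is open in both interferon panels and has the highest fitted value of the 10 (0.36) in the Ccl5 panel, where Tapbp is the filled diamond below 0.

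The treatment comparison asks whether PPCA changed these genes relative to vehicle within harvest days. No member was called in either gate: 0 of 10 in CD4-gated cells, where 0% of 11940 genes were called, and 0 of 10 in CD8-gated cells, where 0.00835% of 11973 genes were called. At an unadjusted p under 0.05 edgeR had 823 and 955 genes, among them Psmb8 and Psmb10 in CD4-gated and Tapbp and Psmb10 in CD8-gated cells. DESeq2 called 35 and 40 genes and 0 of the 10. The median log2 fold change of the 10 was -0.14 in CD4-gated and -0.078 in CD8-gated cells, against -0.0011 and 0.0015 over all genes. Without the libraries of day 2 the median of the 10 was -0.069 in CD4-gated and -0.11 in CD8-gated cells. For all 10 genes the arms overlapped in both gates, where they did not for 6.56% and 6.75% of 7269 genes.

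Psmb10 had the largest difference. In CD4-gated cells the PPCA libraries of days 2, 3 and 4 held 124, 143 and 84.7 TMM-scaled CPM and the vehicle libraries 151, 173 and 136 CPM. In CD8-gated cells the values were 163, 169.8 and 116 against 173, 220.03 and 161 CPM. PPCA was the lower library on each day, by log2 ratios of -0.28, -0.27 and -0.69 and of -0.086, -0.37 and -0.47, yet the arms overlapped, since vehicle day 4 lay below PPCA day 3 in both gates. The log2 fold changes were -0.40 (SE 0.11, edgeR adjusted p = 0.645) and -0.32 (SE 0.10, adjusted p = 0.583), with means of 117 ± 29.7 against 153 ± 18.3 CPM (SD, n = 3, CD4-gated). With Y-linked transcripts as a further factor, a fit with 1 residual degree of freedom, the CD8-gated value was -0.32 with an adjusted p of 0.0287, and adjusted p-values over all settings ran from 0.0287 to 1.00.

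A common sign over the 3 days was not rare among 7269 genes averaging at least 10 CPM: PPCA was lower on all 3 days for 18.4% in CD4-gated and 15.9% in CD8-gated cells, and higher for 10.9% and 16.5%. Of the other subunits, Psmb8 was lower on all 3 days in both gates (-0.22, SE 0.090, and -0.16, SE 0.094). Psmb9 was lower on all 3 days in CD4-gated (-0.18, SE 0.088) and on 2 of 3 in CD8-gated cells (-0.080, SE 0.093). B2m was also lower on every day in both gates: the CD4-gated PPCA libraries had 1741, 2054 and 1587 CPM and their vehicle pairs 1931, 2378 and 1792 CPM, a fitted -0.16 (SE 0.088, edgeR adjusted p = 0.766). Tapbp shared that pattern, with -0.16 (SE 0.10) and -0.22 (SE 0.091). Nlrc5 stood higher on all 3 days in both gates, at 44.3, 38.0 and 30.6 against 42.3, 34.2 and 27.2 CPM in CD4-gated cells, with log2 fold changes of 0.15 (SE 0.090) and 0.17 (SE 0.0935) that did not pass. The transporter genes Tap1 and Tap2 and the heavy chain H2-K1 had fitted values between -0.12 and -0.0099 and no common sign over days in CD4-gated cells. In CD8-gated cells H2-K1 stood lower on all 3 days (-0.15, -0.0080 and -0.013), and Tap1 and Tap2 had no common sign. H2-D1 had 0.072 (SE 0.096) and 0.073 (SE 0.094), higher on 2 of 3 days in CD4-gated and on all 3 in CD8-gated cells.

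Ccl5-positive cells were 39.5%, 13.0% and 30.0% of CD8-gated cells in the PPCA libraries of days 2, 3 and 4 and 29.2%, 14.4% and 16.7% in their vehicle pairs, and the part of this in the day differences was not tested. The share of interferon-list-positive cells also differed. In CD4-gated cells it was 25.1%, 14.1% and 3.82% in the PPCA libraries of days 2, 3 and 4 and 7.20%, 4.91% and 3.74% in their vehicle pairs. In CD8-gated cells it was 27.5%, 13.6% and 4.14% against 8.18%, 5.14% and 4.61%. The share that free RNA of these genes gives was not measured. The 10 genes of the type I list had median log2 fold changes of 1.07 and 0.97, all 10 above 0 in both gates, and 1 was called: Ifit3 in CD8-gated cells, by 2.17 (SE 0.19, edgeR adjusted p = 0.0497). That call was lost with the gate rule alone, with stricter cell filters, with no doublet removal and without the libraries of day 2 or of day 3. In cells with 0 interferon-list UMIs the 10 presentation genes had median log2 fold changes of -0.12 and -0.11 and 0 calls. In those fits 0 of 10198 and 2 of 10098 genes were called, and the medians over all genes were 0.0028 and 0.0053. Partner lists had no calls either, with medians of -0.081 and -0.10 for trimming and loading, -0.23 and -0.21 for the constitutive subunits, 0.012 and 0.062 for the regulators, 0.13 and 0.21 for the further class I genes and -0.018 and -0.035 for interferon-gamma-inducible genes. The dissociation list had medians of -0.19 and -0.29 and 0 calls, and its direction differed between days. In CD4-gated cells it summed to 1109 plain CPM under PPCA against 2541 under vehicle on day 2, 2238 against 2539.5 on day 3 and 7678 against 4459 on day 4. In CD8-gated cells the sums were 669 against 1437, 1257 against 1511 and 5095 against 3479 plain CPM. The part of this list in the day differences of the 10 genes, Psmb10 on day 4 included, was not tested.

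Whether the treatment difference itself differed between gates was tested as an interaction. Of the 10 genes 0 were called and 0 had an unadjusted p under 0.05, where 0.0161% of 12458 genes were called by edgeR (636 at an unadjusted p under 0.05) and DESeq2 called 1 gene. The largest value was that of Psmb9, 0.098 (SE 0.057, adjusted p = 0.992), and that of H2-D1 was 0.00049 (SE 0.046). The values were 0.076 for Psmb10, 0.060 for Psmb8, 0.061 for Tap1, 0.029 for Nlrc5, -0.020 for Tap2, -0.026 for B2m, -0.052 for H2-K1 and -0.060 for Tapbp.

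**Figure D4:**
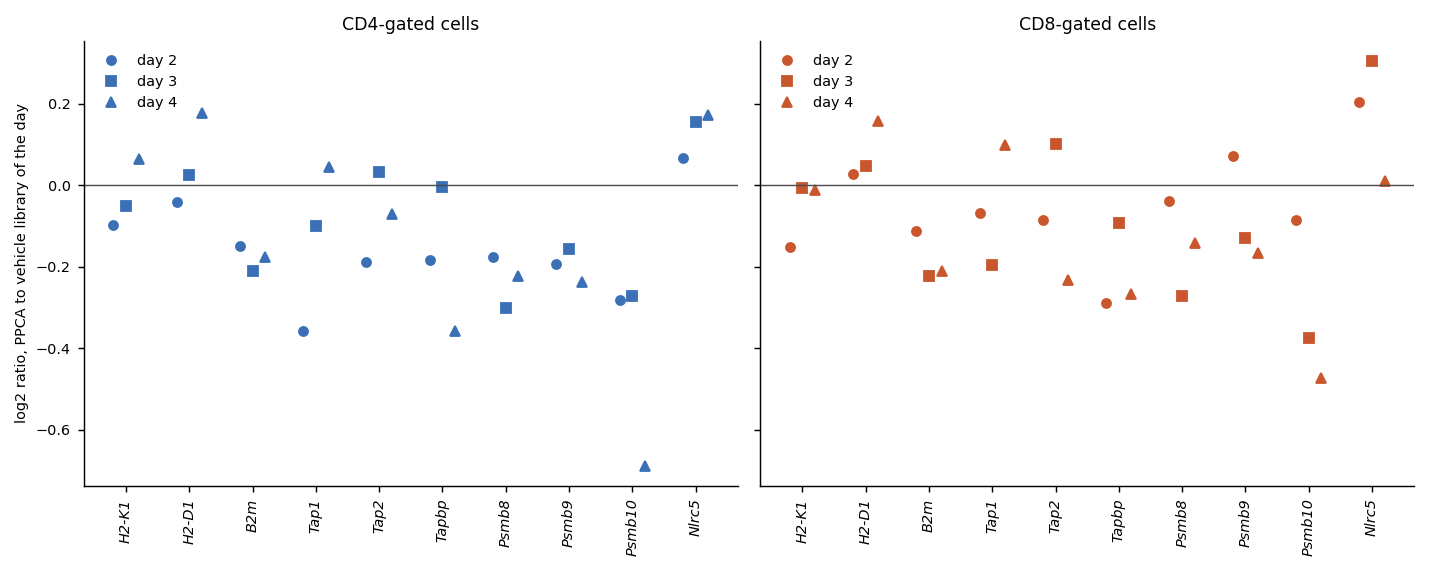
Log2 ratios (vertical axis) of the PPCA to the vehicle library of the same day for the 10 genes in CD4-gated (left) and CD8-gated cells (right); each point is 1 pair of libraries, with no error bar. Psmb10, Psmb8, B2m and Tapbp lie below 0 on all 3 days in both panels and Nlrc5 above 0, within a span from -0.69 to 0.30.

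Day 4 was the lowest day for most members in both arms. The vehicle and PPCA libraries of day 4 lay below all 6 other libraries for 6 of the 10 genes in CD4-gated cells and for 7 in CD8-gated cells. The same held for 17.9% and 18.0% of 7269 genes averaging at least 10 CPM, and both lay above the other 6 libraries for 18.6% and 19.2%. The genes outside this count were H2-D1, B2m, Tap2 and, in CD4-gated cells, Psmb10. H2-D1 was highest in the PPCA library of day 4 in both gates (2148 and 2327 CPM). The dissociation list stood at sums of 4459 and 7678 plain CPM in the CD4-gated cells of vehicle and PPCA on day 4, against 1109 to 2541 plain CPM in the other 6 libraries. In CD8-gated cells it was 3479 and 5095 against 669 to 1955 plain CPM. Interferon genes were low on the same day. Both day 4 libraries lay below the other 6 for 7 of 9 interferon-gamma-inducible genes in each gate and for 6 and 5 of 10 type I genes. The interferon-gamma list summed to 361 and 251 TMM-scaled CPM in the CD4-gated cells of vehicle and PPCA on day 4 against 518 to 657 CPM in the others, and to 434 and 296 against 609 to 725 CPM in CD8-gated cells. The part of either in the day 4 levels was not tested, and no test was made of the day itself.

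Across the 16 sums, centred within each gate, the members mostly moved together, as a description over points that share libraries. The 45 pairs had a median correlation of log2 levels of 0.53, with 35 above 0, where pairs among 7269 genes averaging at least 10 CPM had a median of 0.015. The tightest pairs were Psmb8 with Psmb9 (0.91) and Psmb8 with Psmb10 (0.90). Tap1 with Psmb9, the neighbours that share the upstream stretch printed above, stood at 0.81, and Tap1 with Tap2, the subunits of the transporter, at 0.39. H2-D1 was negative with all 9 others, from -0.84 with Tapbp to -0.064 with Tap2, and -0.39 with the other heavy chain H2-K1. The genes outside the set most like the mean profile of the 10, by correlation over the 16 sums, were Vps39 (0.95), Fam234b (0.94), Pcgf3 (0.94), Fam78a (0.94) and Ctnnb1 (0.94).

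**Figure D5:**
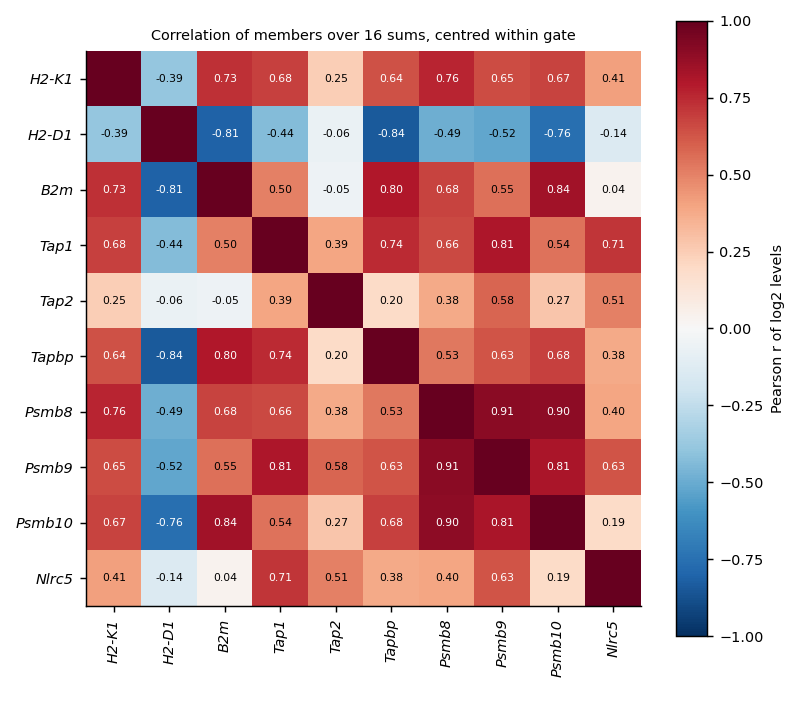
Pearson correlations of log2 levels between the 10 genes over 16 sums (8 libraries in each of 2 gates), centred within gate. Red is positive and blue negative, with the value in each cell off the diagonal. H2-D1 is below 0 with every other gene, from -0.84 with Tapbp to -0.064 with Tap2, while Psmb8, Psmb9 and Psmb10 form a block of 0.81 to 0.91.

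Active and onset have 1 library each, so their levels are given with no test. No member was 2-fold apart, where 0.83% of 2771 genes were in CD4-gated and 1.74% of 2763 genes in CD8-gated cells, at 50 CPM or more in the higher library. Tapbp differed most, at 204 CPM in active against 124 CPM in onset CD4-gated cells (log2 ratio 0.72, 95% counting interval 0.65 to 0.79) and 212 against 139 CPM in CD8-gated cells (0.61, 0.53 to 0.70). These levels are plain CPM. Tap1 was higher in active CD4-gated cells by 0.39 (0.30 to 0.49), with 0.0996 (-0.0093 to 0.21) in CD8-gated cells. B2m was also higher in active, by 0.23 and 0.17, while Psmb8 was lower, by -0.16 and -0.26, and Psmb10 by -0.15 and -0.096. Tap2 had 0.038 (-0.049 to 0.12) and -0.15 (-0.25 to -0.058), H2-K1 0.0070 and -0.077, and Psmb9 -0.012 and -0.076. H2-D1 had log2 ratios of -0.059 and -0.23, and Nlrc5 of 0.054 (-0.094 to 0.20) and -0.039 (-0.18 to 0.098), intervals that span 0. Of the 10 genes 6 were higher in active CD4-gated cells and 3 in CD8-gated cells on plain CPM, and 4 in each gate on TMM-scaled levels, so these counts turn with the scaling. The intervals cover counting error only and say nothing of the spread between mice. Other measures differed between these libraries too. Interferon-list-positive cells were 18.7% of CD4-gated cells in active against 6.74% in onset, and 17.2% against 8.96% of CD8-gated cells. Ccl5-positive cells were 17.0% against 33.0% of CD8-gated cells, and the dissociation list summed to 952 against 1955 plain CPM there. Their part was not tested.

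In the authors' deposited table of marker genes for 7 named T cell clusters, members were listed in 4. The authors' deposited table lists 8 of the 10 for the cluster CD8 TRM TEM, all but Tapbp and Psmb10, led by H2-D1 (log2 fold change 0.70), Psmb8 (0.68), Psmb9 (0.54) and H2-K1 (0.53). The authors' deposited table lists 702 genes for that cluster, 2.17% of the 32285 features, 567 (1.76%) for CD4 Treg, 82 (0.254%) for CD4 Th1 and 428 (1.33%) for CD4 Th17. For CD4 Treg the authors' deposited table has H2-K1 (0.48), H2-D1 (0.39), Tap1 (0.32) and B2m (0.28). For CD4 Th1 it lists, in the authors' deposited table, Tapbp (0.36), Psmb10 (0.32) and Psmb9 (0.28), and for CD4 Th17 H2-D1 (0.38) and H2-K1 (0.29). The authors' deposited table has no member under CD4 Naive, CD4 Th0 or CD8 TCM, which have 54 (0.167%), 179 (0.554%) and 88 (0.273%) listed genes. Its smallest listed log2 fold change is 0.25.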

How the data were processed

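The deposited matrices hold raw UMI counts per gene and cell barcode, written by Cell Ranger 6.0.0 per the file headers and listed as 6.1.2 in the submitters' processing notes. The sources used here do not name the genome build, the annotation or the handling of reads shared between genes. Per-cluster log2 fold changes and p-values come from the authors' deposited marker table, for which the notes name Seurat.

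The 10 genes, gene lists and comparisons were chosen with earlier results of these data known. Cells needed at least 500 genes, under 10% mitochondrial UMIs and at most 1 UMI over 6 B cell and myeloid genes. The barcodes with the highest Scrublet scores (scanpy 1.11.5; 0.8% per 1000 barcodes) were removed, 6752 in all. UMIs were summed per library and gate, genes filtered with filterByExpr, scaled by TMM and tested with edgeR 4.0.16 (quasi-likelihood, Benjamini-Hochberg adjusted p under 0.05 over all genes tested). PPCA against vehicle had harvest day as a block, and comparisons within a library had the library. The day pairs of libraries deviated together (correlations of 0.319 to 0.512 in CD4-gated and 0.35 to 0.524 in CD8-gated cells), so the number in the titles, a day, was taken to pair them. Splits used cells thinned to 2000 UMIs. DESeq2 1.42.0 and other settings were alternatives. On simulated counts with no day or library effect on single genes, the fits of the 7 comparisons recovered 78% to 92% of 200 genes changed 2-fold. Each fit made 5 to 12 false calls. All fitted differences of the 10 genes were smaller than 2-fold, so this recovery does not apply to them. The text names the 10 genes in every comparison and, of each list, up to 3 called genes with the largest change, except 1 gene that is not reported here.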

Additional observations from a re-analysis of the deposited data

How the results depend on the processing

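Changes of setting left most results for single genes in place. For PPCA against vehicle 125 of 130 values in CD4-gated and 126 of 130 in CD8-gated cells kept their direction and their side of the threshold. The counts were 60 of 70 for the difference between gates, 201 of 210 for CD8-gated against CD4-gated cells, 138 and 131 of 170 for the interferon split, and 136 of 160 for the Ccl5 split. For active against onset 80 of 80 values stayed within the counting interval of the value reported, while 3 of 40 in CD4-gated cells (1 for H2-K1 and 2 for Psmb9) crossed 0. Settings with only the cells at 0 interferon-list or 0 Ccl5 UMIs, or only the libraries with or without Y-linked transcripts, were chosen after seeing the data. The cause of the changes given here was not tested.

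For PPCA in CD4-gated cells the count of called genes, 0 with edgeR, was 35 with DESeq2, 137 with no low-count filter, 113 with the Y-linked factor and 0 to 25 without 1 replicate number, that is, without the pair of libraries of 1 day (25 without day 4). In CD8-gated cells, with 1 called gene, it was 2 with DESeq2 size factors, 40 with DESeq2, 153 with no low-count filter, 0 with the gate rule alone, 0 with stricter cell filters, 0 with no doublet removal, 2 with at least 2 gate UMIs, 2 in cells with 0 interferon-list UMIs, 368 with the Y-linked factor (1 of them a member, Psmb10) and 0 to 229 without 1 replicate number (229 without day 4). For the difference between gates, with 2 called genes, it was 1 with DESeq2, 73 with no low-count filter and 18 to 39 without 1 replicate number (39 without day 4). In CD8-gated against CD4-gated cells it was 3340 in cells with 0 interferon-list UMIs, which were also thinned, and 3934 with thinning alone, against 5737. In the 4 libraries with Y-linked transcripts 115 of 9869 genes and 2 members were called in the CD4-gated interferon split. In the CD8-gated one 132 of 9347 genes and 5 members were called, and in the Ccl5 split 2707 of 9792 genes.

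Without the replicate block, the term that pairs sums of 1 day or library, PPCA had 0 called genes in CD8-gated cells and 0 for the difference between gates. CD8-gated against CD4-gated cells had 2012 of 11562 genes and 4 members called. The interferon split had 84 of 9227 genes and 0 members (CD4-gated) and 83 of 8794 genes and 1 member (CD8-gated). The Ccl5 split had 2432 of 9085 genes and 4 members. The difference between gates for H2-D1 was -0.00904 without the block.

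Some values changed sign, none of them past the threshold. PPCA in CD4-gated cells, without 1 replicate number, ran from -0.072 to 0.042 for H2-K1, -0.0057 to 0.14 for H2-D1, -0.23 to 0.0075 for Tap1 and -0.11 to 0.017 for Tap2. In CD8-gated cells the ranges were -0.14 to 0.0049 for Tap1 and -0.17 to 0.0023 for Tap2, and Tap2 was 0.023 in cells with 0 interferon-list UMIs. The difference between gates ran from -0.032 to 0.038 for H2-D1, which was -0.0017 with DESeq2 and with its size factors. It ran from -0.056 to 0.0059 for B2m, -0.057 to 0.14 for Tap1, -0.080 to 0.080 for Tap2 and -0.042 to 0.14 for Nlrc5. In CD4-gated cells H2-D1 was -0.013 when interferon-list cells needed at least 3 UMIs. Nlrc5, the lowest of the 10 at 27.2 to 44.3 CPM in CD4-gated cells, had a larger SE than H2-D1 within libraries (0.10 against 0.033 in the CD4-gated interferon split) and not for PPCA (0.090 against 0.096).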
